A study of Mus musculus with 2 samples.

Results

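The VEGF and angiopoietin ligands and receptors examined here are 10 genes, Angpt1, Angpt2, Tek, Tie1, Vegfa, Vegfc, Kdr, Flt1, Nrp1 and Nrp2. They were taken by symbol. A probe set was included when the annotation of the array platform gave it a single gene symbol and that symbol was one of the 10. The array carried 24 such probe sets, among 34945 probe sets with a single symbol for 18193 genes. RNA came from the ovaries of mice at 2 days of age. The control pool combined 8 mice labelled Amhr2(+/+)-SmoM2, and the mutant pool combined 8 mice labelled Amhr2(cre/+)-SmoM2, with 1 array for each pool. The sources used here give neither strain nor litter. Both pools carried the SmoM2 allele, which encodes an always-on version of Smoothened, the relay protein of the hedgehog signal. Only the mutant mice had Cre, which sits in the Amhr2 locus, the gene of the receptor for anti-Müllerian hormone in gonadal somatic cells. SmoM2 activation, Cre and the altered Amhr2 copy differ between the pools together and cannot be told apart.

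VEGF ligands act on receptor tyrosine kinases of endothelial cells and drive the growth of blood and lymphatic vessels, and neuropilins hold VEGF at these receptors. Angiopoietins act on Tie2, the product of Tek. Angpt1 activates Tie2 and steadies vessels together with their pericytes, whereas Angpt2 is context dependent and often opposes Angpt1. The ovary is a tissue in which vessels are remodelled repeatedly, and its thecal and interstitial layers are richly vascularised.

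The arrays give a signal intensity for each probe set, in arbitrary units on a scale common to both arrays. A probe set was counted as measured when its higher value reached 80.7, the median of all values. Of the 24 probe sets 19 were measured, and they covered 9 of the 10 genes. Tie1 was under the minimum. Log2 ratios are mutant over control with 22.2 added to both signals, which understates the change of dim probe sets. Counts at 1.5-fold or 2-fold require this log2 ratio to pass the level, 0.58 for 1.5-fold. A dim gene whose plain fold is just past 1.5 can therefore fall short. Each group held 1 array. The values therefore have no replicate check and no p-value, and the array number limits their precision. The spread at hand was that among the probe sets of a gene, with an SD of 0.38 on the log2 ratio, and from 0.47 in the dimmest to 0.32 in the brightest of 4 equal signal classes. It also holds differences between transcripts of a gene, and it leaves out any spread between repeated pools or arrays. Signals of different probe sets cannot be ranked against each other, so only the 2 pools are compared. As a check of the labels, the hedgehog targets Gli1 and Ptch1 had log2 ratios of 1.19 and 1.51. Amhr2, whose locus carries Cre in the mutant, had log2 ratios of -1.30 and -1.26 on a pair of _x_at probe sets and -0.26 on a much dimmer one.

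The promoters shown first are those of both neuropilins, whose probe sets differed in opposite directions, of Vegfc and its close relative Vegfd, a ligand outside the 10 genes with a much higher log2 ratio, and of Angpt4, another gene outside the 10 and a Tie2 ligand that was higher in the mutant pool. The table of RefSeq promoters (GRCm38.p6) held 8 of the 10 genes, all but Angpt1 and Angpt2. Each line gives the 250 bases before the annotated start on the plus strand, at chr8:128358823-128359072 for Nrp1, chr8:54077282-54077531 for Vegfc, chrX:164373272-164373521 for Vegfd, chr1:62703067-62703316 for Nrp2 and chr2:151910957-151911206 for Angpt4. Capitals mark, on either strand, CCACCC, which lies inside the Gli consensus, and the hypoxia core ACGTG or GCGTG.
Nrp1: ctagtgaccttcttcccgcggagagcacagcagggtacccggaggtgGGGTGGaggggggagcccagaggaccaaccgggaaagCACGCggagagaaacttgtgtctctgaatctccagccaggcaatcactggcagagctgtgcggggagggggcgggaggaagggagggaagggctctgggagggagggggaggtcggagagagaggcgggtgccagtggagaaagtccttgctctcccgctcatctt
Vegfc: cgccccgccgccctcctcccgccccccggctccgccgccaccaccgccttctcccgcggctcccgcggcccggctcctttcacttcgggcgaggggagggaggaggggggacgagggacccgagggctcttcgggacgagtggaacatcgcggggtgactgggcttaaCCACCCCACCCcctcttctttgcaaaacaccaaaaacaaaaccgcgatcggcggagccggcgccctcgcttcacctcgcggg
Vegfd: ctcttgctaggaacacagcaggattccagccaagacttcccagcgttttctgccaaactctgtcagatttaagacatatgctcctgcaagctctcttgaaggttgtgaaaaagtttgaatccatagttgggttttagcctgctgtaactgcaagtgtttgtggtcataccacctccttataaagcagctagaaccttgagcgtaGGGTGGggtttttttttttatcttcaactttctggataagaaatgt
Nrp2: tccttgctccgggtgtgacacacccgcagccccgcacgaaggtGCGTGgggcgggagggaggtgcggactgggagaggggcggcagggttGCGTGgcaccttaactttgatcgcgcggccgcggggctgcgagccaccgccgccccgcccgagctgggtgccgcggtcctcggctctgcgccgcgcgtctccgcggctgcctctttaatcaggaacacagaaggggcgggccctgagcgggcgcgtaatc
Angpt4: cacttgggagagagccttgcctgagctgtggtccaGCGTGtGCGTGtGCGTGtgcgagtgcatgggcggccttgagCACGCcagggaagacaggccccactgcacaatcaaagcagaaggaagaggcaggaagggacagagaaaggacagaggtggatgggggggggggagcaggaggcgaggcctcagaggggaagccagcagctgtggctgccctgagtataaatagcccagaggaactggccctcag

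Gli factors are the transcription factors of the hedgehog pathway, and hypoxia-inducible factors are the best known activators of Vegfa. The full Gli consensus GACCACCCA was found on neither strand of any of these 5 windows, and 0.225% of 32851 promoter windows in the table held it. The shorter CCACCC was found 1 time for Nrp1, 2 times for Vegfc in adjoining copies that share a base, 1 time for Vegfd and 0 times for Nrp2 and Angpt4. It occurs in 28.1% of all windows. The 5 windows were picked by the ratios of their genes. CCACCC was also found 1 time each for Kdr, Flt1, Tie1, Flt4 and Vegfb, which differed little or were not measured. For Vegfa and Pgf it was found 1 time in a window and 0 times in another, and for Tek and Svep1 0 times. The hypoxia core was found 1 time for Nrp1, 2 times for Nrp2 and 4 times for Angpt4, and 0 times for Vegfc and Vegfd. It occurs in 38.6% of all windows. These matches are a description of letters in a short window.

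In the mutant pool 4 of the 9 measured genes were at least 1.5-fold higher, namely Angpt1, Angpt2, Vegfc and Nrp1, and 0 were lower by as much. Each gene is represented here by its brightest measured probe set. The corresponding shares of all 12308 measured genes were 9.32% upward and 7.9% downward, or 8.04% and 6.63% without the genes whose dimmer value lay under the minimum and whose fold is bounded under 1.5. At 2-fold, Angpt2 and Nrp1 were higher, a level reached by 3.21% of all genes upward and by 1.4% downward. The median log2 ratio of the 9 genes was 0.28, against -0.02 for all measured genes. 7 of the 9 ratios lay above 0, as did 47.5% of those of all genes. At the level of probe sets, 8 of 19 were at least 1.5-fold higher and 2 were lower by as much, and both of the latter belonged to Nrp2. The fold of 1 of these 2 is bounded only at 1.32, because its mutant value lay under the minimum. The shares over all 20576 measured probe sets with a single symbol were 8.81% and 9.87%. The genes past 1.5-fold were 3 ligands and 1 neuropilin, and none of the measured receptor kinases reached that level on its brightest probe set.

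**Figure D1:**
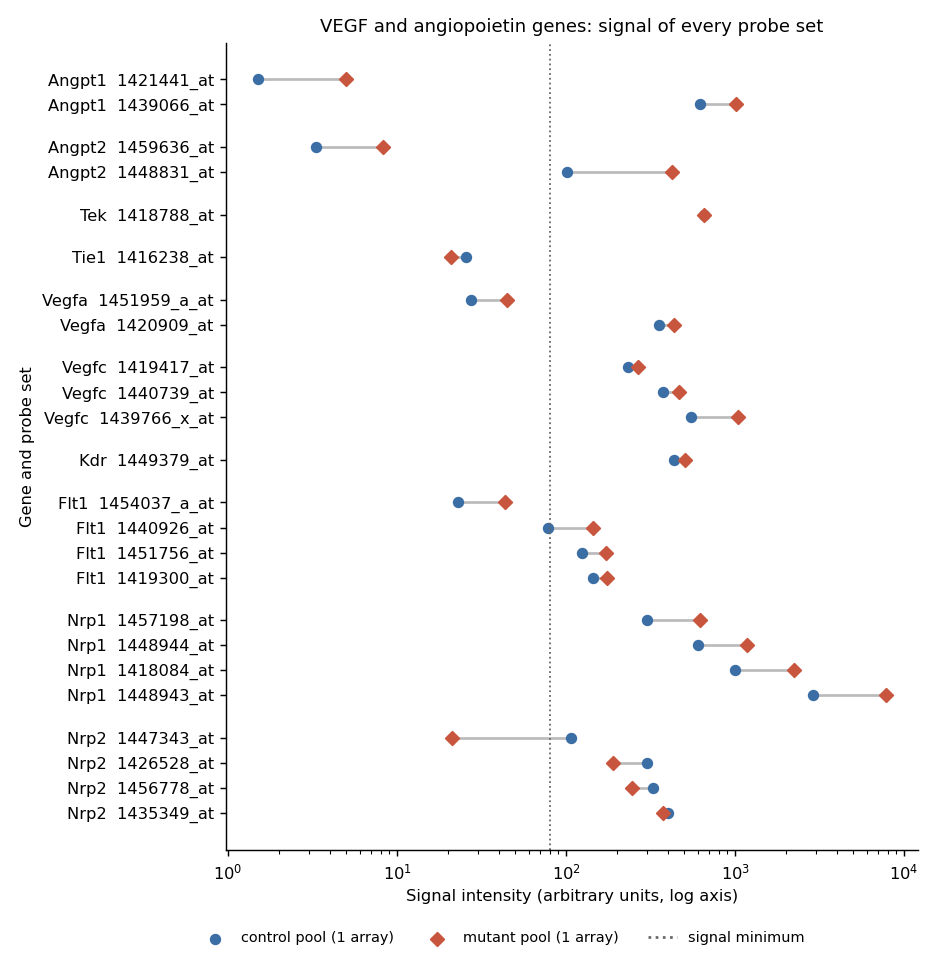
Signal intensity (arbitrary units, log axis) of all 24 probe sets of the 10 genes in the control pool (circles) and the mutant pool (diamonds), 1 array each, with the signal minimum of 80.7 as a dotted line. The mutant diamond lies to the right for all 4 Nrp1 probe sets and to the left for all 4 Nrp2 probe sets, and the Tek symbols coincide.

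Angpt2 had the largest log2 ratio of the 10 genes. Angpt2 (Entrez gene 11601), the ligand released by endothelial cells during vessel remodelling, read 100.6 (control) and 424.5 (mutant) on probe set 1448831_at. The signal was 4.22-fold higher, with a log2 ratio of 1.86 that ranked 104 from the top of the 12308 genes. It was 4.92 times the SD between probe sets of a gene in its signal class. The other Angpt2 probe set, 1459636_at, read 3.3 and 8.2, far under the minimum in both pools, so the difference rests on a single probe set.

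Angpt1 (11600), the activating Tie2 ligand made by pericytes and stromal cells, differed less. Its measured probe set 1439066_at read 622.6 (control) and 1018.6 (mutant), 1.64-fold higher (log2 ratio 0.69, or 1.96 times the SD of its signal class). The other probe set, 1421441_at, read 1.5 and 5.0 and was not measured. Both ligands were thus higher in the mutant pool, each on 1 probe set. The log2 ratio of Angpt2 exceeded that of Angpt1 by 1.17, and by 0.83 to 1.36 under the alternative settings that measured both.

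Their receptor did not follow. Tek (21687) read 658 (control) and 656 (mutant), a log2 ratio of -0.004 on its only probe set, 1418788_at. Tie1 (21846), the orphan relative of Tie2 that modulates its signal, read 25.5 and 20.8 and stayed under the minimum, so no ratio is given for it. Tek was the member with the closest match between the pools, and 14 of 18 endothelial markers had a higher log2 ratio.

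Of the VEGF ligands, Vegfa differed little and Vegfc differed by an amount that depended on the probe set. Vegfa (22339), the main ligand of blood vessel growth, read 356.3 (control) and 437.2 (mutant) on 1420909_at, 1.23-fold higher with a log2 ratio of 0.28. That is 0.74 times the SD of its signal class. A further probe set, 1451959_a_at, read 27.5 and 45.0 and was not measured. Vegfc (22341), which acts mainly on the lymphatic receptor encoded by Flt4, had 3 measured probe sets. The brightest, 1439766_x_at, read 548.1 and 1034.6, 1.89-fold higher with a log2 ratio of 0.89. The others read 373.2 and 468.4 (1440739_at, log2 ratio 0.31) and 232.7 and 265.3 (1419417_at, log2 ratio 0.17). All 3 were higher in the mutant pool, and only the brightest passed 1.5-fold. Its identifier ends in _x_at, the mark for probe sets whose probes can also detect other transcripts. Without such probe sets the log2 ratio of Vegfc was 0.31, and as a mean over its probe sets it was 0.46. Vegfc therefore counts as 1.5-fold higher only on that probe set.

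The VEGF receptors showed small ratios in the same direction. Kdr (16542), the main signalling receptor for Vegfa on endothelial cells, read 434.5 (control) and 503.7 (mutant) on its only probe set, 1.16-fold higher with a log2 ratio of 0.20. Flt1 (14254), which binds Vegfa tightly and also exists as a soluble decoy, had 3 measured probe sets, all dim. They read 144.6 and 174.1 on 1419300_at, 123.6 and 172.1 on 1451756_at, and 78.5 and 145.1 on 1440926_at. The log2 ratios were 0.23, 0.41 and 0.73. On the last the control value lay under the minimum, and the fold is at least 1.80. The remaining one, 1454037_a_at, read 22.8 and 43.6 and was not measured. Every Flt1 probe set was higher in the mutant pool. The brightest differed by 0.50 times the SD of its signal class and the dimmest measured one by 1.55 times. The sources used here do not state which Flt1 transcript each probe set detects.

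The probe sets of the 2 neuropilins differed in opposite directions, those of Nrp2 by little on the brightest. Nrp1 (18186), co-receptor of Kdr for Vegfa and receptor of class 3 semaphorins, was higher on all 4 of its probe sets. They read 2883.0 (control) and 7823.8 (mutant) (1448943_at), 994.2 and 2220.9 (1418084_at), 601.4 and 1177.6 (1448944_at), and 299.3 and 620.5 (1457198_at). The folds were 2.71, 2.23, 1.96 and 2.07, with log2 ratios of 1.43, 1.14, 0.94 and 1.00. Each was at least 2.64 times the SD of its signal class. The annotation gives 3 of the 4 the same source sequence, so they are not independent measurements. Of 752 genes with 4 or more measured probe sets, 0.798% had all of them at least 1.5-fold higher.

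Nrp2 (18187), the neuropilin of lymphatic and venous endothelium and a co-receptor for Vegfc, was lower in the mutant pool on all 4 of its probe sets, by amounts that varied widely. The brightest, 1435349_at, read 398.3 (control) and 372.1 (mutant), a log2 ratio of -0.09. That difference was 0.25 times the SD of its signal class. The others read 327.4 and 244.3 (1456778_at, log2 ratio -0.39), 302.6 and 189.4 (1426528_at, -0.62) and 106.3 and 21.1 (1447343_at, -1.57). On the last the mutant value lay under the minimum, and the signal was at least 1.32-fold lower. By its brightest probe set the gene did not reach 1.5-fold, and 1426528_at was the only Nrp2 probe set shown to pass it. The mean log2 ratio over the 4 probe sets was -0.36 with the value under the minimum raised to it. Among the same 752 genes 12.1% had every probe set lower in the mutant pool. The log2 ratio of Nrp1 exceeded that of Nrp2 by 1.53, and by 1.04 to 1.80 under the alternative settings that measured both. The highest of these uses the Nrp2 value under the minimum, and with it raised to the minimum the same setting gave 1.49.

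**Figure D2:**
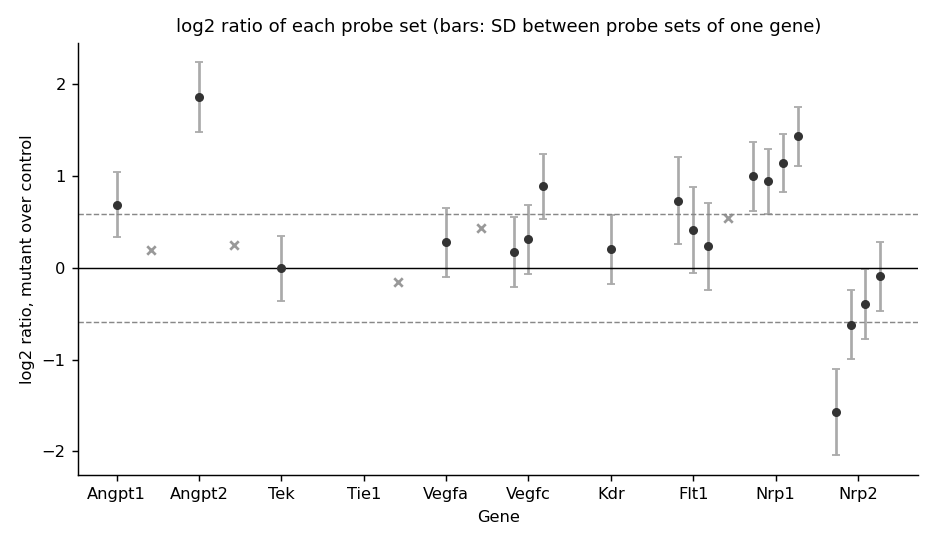
The vertical axis is the log2 ratio of mutant to control for each probe set, by gene. Points are measured probe sets, dimmest on the left of each gene, with bars of 1 SD between probe sets of the same gene in that signal class, crosses are probe sets under the signal minimum, and dashed lines mark 1.5-fold. All 4 Nrp1 points lie above the upper line, from 0.94 to 1.43, and all 4 Nrp2 points lie below 0, from -1.57, where the mutant value was under the minimum, to -0.09.

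The remaining ligands and receptors of the same families held a larger difference than any member. Of 7 such genes 6 were measured, 2 were at least 2-fold higher, 0 were at least 1.5-fold lower, and the median log2 ratio was 0.34. Vegfd (14205), a lymphangiogenic ligand closely related to Vegfc, was higher on all 3 of its probe sets. They read 129.9 (control) and 631.0 (mutant) (1438954_x_at), 138.4 and 601.0 (1449528_at), and 115.2 and 581.3 (1438953_at). The folds were 4.86, 4.34 and 5.05. Of 1983 genes with 3 or more measured probe sets, 0.706% had all of them at least 2-fold higher. Unlike Vegfc, the Vegfd probe sets gave nearly the same ratio, with log2 ratios from 1.96 to 2.13. The brightest is an _x_at probe set. Whether probe sets share a source sequence was checked for Nrp1 only, so these 3 may not be independent.

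Angpt4 (11602), the third angiopoietin and a Tie2 ligand, was also higher. Its brighter probe set read 115.5 (control) and 394.5 (mutant), 3.42-fold higher with a log2 ratio of 1.60. The dimmer read 40.7 and 81.1, where the bound is 1.00-fold and the log2 ratio 0.72. Pgf, placental growth factor, which binds Flt1, read 6.2 and 54.3 and was not measured. Vegfb, the other ligand of Flt1, read 154.5 and 194.7 (log2 ratio 0.30). The receptors and their partners again differed little. Flt4 (14257), the receptor of Vegfc and Vegfd, read 96.7 and 107.6 with a log2 ratio of 0.13. Ptprb, the endothelial phosphatase that restrains Tie2, read 467.4 and 441.4 with a log2 ratio of -0.08. Svep1, a matrix protein needed for lymphatic remodelling, read 208.1 and 277.6 with a log2 ratio of 0.38.

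**Figure D3:**
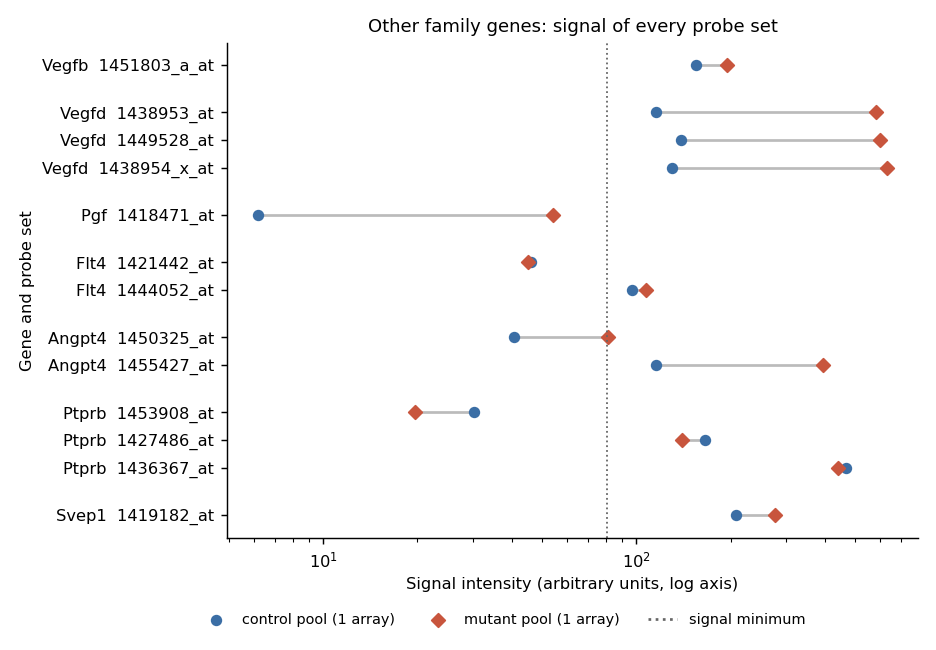
Signal intensity (arbitrary units, log axis) of the 13 probe sets of 7 further genes of the VEGF and angiopoietin families in the control pool (circles) and the mutant pool (diamonds), 1 array each, with the signal minimum of 80.7 dotted. The 3 Vegfd probe sets share a similar gap, from 115.2 to 138.4 in the control and from 581.3 to 631.0 in the mutant pool.

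Genes that act downstream of these receptors or share them showed few differences. Of 12 intracellular relay genes of the VEGF and Tie receptors 10 were measured, 0 passed 1.5-fold in either direction, and the median log2 ratio was 0.05. Their ratios ran from -0.35 to 0.38. Of 12 class 3 semaphorins and plexins, which signal through the neuropilins, 11 were measured, with a median of 0.05. At 1.5-fold 1 of them was higher and 0 lower, against 9.32% and 7.9% of all measured genes. The gene that passed was Sema3f, a Nrp2 ligand, at 77.7 (control) and 157.8 (mutant), at least 1.96-fold higher on an _x_at probe set. Its other measured probe set had a log2 ratio of 0.59, with the control value under the minimum and a fold bounded at 1.06. Sema3g read 91.4 (control) and 139 (mutant), 1.52-fold higher, but its log2 ratio of 0.50 fell short of the level for the count.

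Markers of endothelial cells and pericytes are given beside these values. In pooled whole ovaries, fewer cells of a type and less RNA per cell cannot be told apart. All 18 endothelial markers were measured, and 14 had log2 ratios above 0 and 4 below. Their median was 0.41, and their summed signal was 9220 (control) and 12151 (mutant). Such sums, here and below, are weighted toward the brightest probe sets of a list. A level of 1.5-fold was passed upward by Sox18, Eng and Cd34, at log2 ratios of 0.84, 0.60 and 0.59, and downward by 0. Without folds bounded under 1.5, the shares of all measured genes were 8.04% upward and 6.63% downward. The lowest markers were Erg, Tal1 and Cldn5, at log2 ratios of -0.31, -0.30 and -0.25. With 80.7 in place of 22.2 added to both signals, Eng and Cd34 had 0.51 and 0.57, short of 1.5-fold. Pecam1 read 68.8 (control, under the minimum) and 116.7 (mutant), and its fold is bounded only at 1.45. Angpt2 and all 4 Nrp1 probe sets had higher log2 ratios than all 18 markers, and Angpt1 than 17. Vegfc exceeded all 18 on its _x_at probe set and 7 and 6 of them on its others. Flt1 exceeded 6 on its brightest probe set and 9 and 17 on the dimmer ones. Tek, Kdr and Vegfa exceeded 4, 6 and 6 of them. Nrp2 exceeded 3 on its brightest probe set and 0 on each of its others. Of 10 pericyte markers 9 were measured, with a median of 0.09 and summed signals of 6988 and 9082. Log2 ratios lay above 0 for 5 and below 0 for 4. The lowest were Anpep at -0.36, with its mutant value under the minimum, and Mcam at -0.28. At 1.5-fold 2 pericyte markers were higher and 0 lower, against 9.32% and 7.9% of all measured genes. Pdgfrb and Notch3 were those that passed, at log2 ratios of 0.84 and 0.64. For Notch3 the ratio comes from an _s_at probe set, whose probes can match related transcripts, and its other measured probe set had 0.24. The other Pdgfrb probe set had 0.52. The brighter one, at 2020.8 (control) and 3638.5 (mutant), weighs heavily in the pericyte sums.

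The lists of other ovarian cells had medians farther from 0. Gonadal interstitial markers had a median of 0.83 with 7 of 8 at least 1.5-fold higher and summed signals of 34856 (control) and 57819 (mutant). All 6 steroidogenic markers were at least 2-fold higher on their brightest probe sets (median 3.17, summed signals 9416 and 53091). Control values of Cyp11a1 and Cyp17a1, 29.6 and 38.8, lay under the minimum. The other measured Cyp11a1 probe set had a log2 ratio of 0.26. The steroidogenic median ranged from 2.06 to 3.27 under the alternative settings. Leukocyte markers had a median of 0.62 with 4 of 7 at least 1.5-fold higher (summed signals 4988 and 8210). Pregranulosa markers had a median of -1.02 with 5 of 6 at least 1.5-fold lower (22331 and 11058). Their list and sums include Amhr2, whose locus carries Cre in the mutant and which read 8590.9 (control) and 3485.5 (mutant). Oocyte markers had a median of -0.66 with 4 of 7 at least 1.5-fold lower (28896 and 18104). For erythroid markers it was -0.84 with 2 of the 4 measured lower by as much (2718 and 1283). The leukocyte marker Adgre1 and the interstitial marker Dcn stood near 0, at log2 ratios of -0.004 and -0.04. The oocyte and pregranulosa markers, which define the labelled tissue, were all measured. The part of these cell types in the VEGF and angiopoietin differences was not tested. As a sign of RNA quality, the 3' to 5' signal ratio was 8.48 (control) and 10.5 (mutant) on the beta-actin probe sets and 3.28 and 4.98 on those of Gapdh. Its part in the differences was not tested either.

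**Figure D4:**
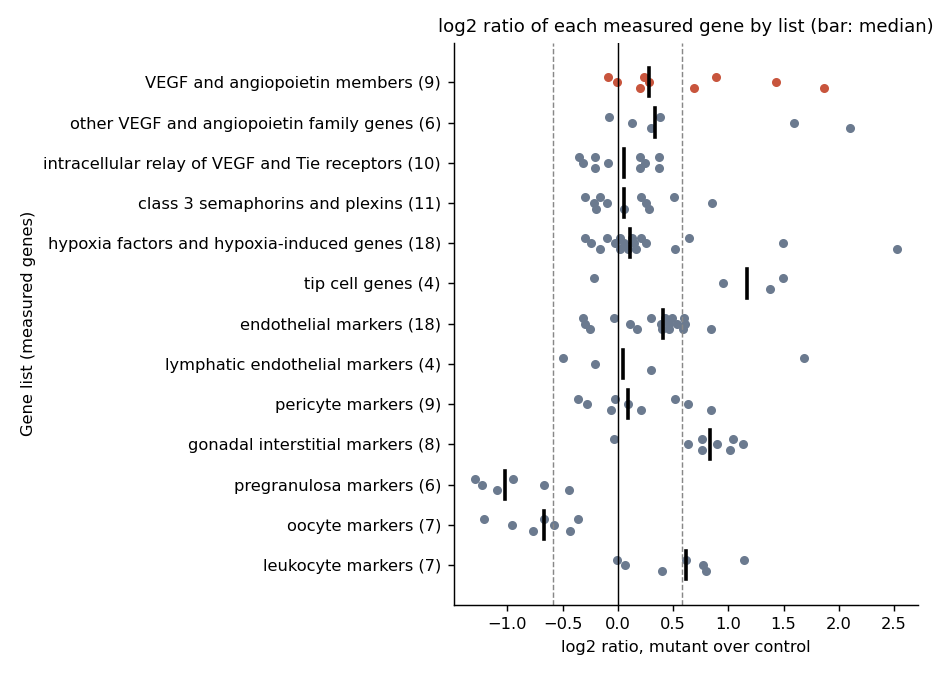
The log2 ratio of mutant to control (horizontal axis) is plotted for each measured gene by list, with the number of measured genes in brackets, a bar at each median and dashed lines at 1.5-fold. The 9 VEGF and angiopoietin genes (top row) spread from -0.09 to 1.86 around a median of 0.28, while the 18 endothelial markers spread from -0.31 to 0.84 around 0.41.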

How the data were processed

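Ovary RNA from 8 mice per genotype was pooled, labelled with biotin and hybridised to 1 array per pool, per the labels' protocols. The authors deposited a linear signal intensity for each probe set. The submitters' processing notes name GCOS. Further settings are not stated in those sources. Intensities were used as deposited. Their mean without the lowest and highest 2% was 499 on both arrays, and 50.3% (control) and 49.8% (mutant) of probe sets reached the signal minimum.

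Gene symbols came from the platform annotation. Through the Entrez ID, all 10 symbols equalled those of the RefSeq table. The 932 probe sets with several symbols and the 9211 not listed were not named. The pseudocount of 22.2 is the 25th percentile of all values. A fold is mutant over control, or its inverse. Where 1 value was under the minimum it is a lower bound, the brighter value over 80.7. No test could be run with 1 array per group, and leaving out a replicate was not possible. The members and lists were chosen with earlier results of these data known. All member and family probe sets are described, and of other lists at most 4 genes past 1.5-fold are named. Those named within 1.5-fold or under the minimum were chosen after their values were seen. The counts of genes whose probe sets all differed one way were chosen after values were seen. The functions were tested on simulated data. Python 3.11.15, pandas 2.3.3 and numpy 2.4.6 were used.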

Additional observations from a re-analysis of the deposited data

How the results depend on the processing

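The results were recomputed under 12 alternatives, covering the pseudocount, the signal minimum, the scaling, the choice of probe set and the threshold, and under 1 more chosen after seeing the data, the mean over probe sets with values under the minimum raised to it. Angpt1, Angpt2 and Nrp1 were at least 1.5-fold higher under every alternative that measured them, with log2 ratios from 0.64 to 0.74, 1.48 to 2.07 and 0.94 to 1.48. Angpt1 and Angpt2 had 1 measured probe set each, so the settings on the choice of probe set could not change their values. Angpt2 was too dim when the signal minimum was raised to the 75th percentile. Vegfc ranged from 0.17 to 0.93 and passed 1.5-fold under 8 of 12 alternatives, failing under the 4 that set aside or averaged its brightest probe set. Nrp2 ranged from -0.67 to -0.05. Of the 104 recomputed values of the members, 97 moved by no more than the SD of 0.38 between probe sets of a gene. These include values that a setting could not change. With a 2-fold threshold 2 genes were higher in place of 4. With the mean over all measured probe sets 1 gene, Nrp2, had a log2 ratio past 1.5-fold lower (-0.67) in place of 0, through a probe set whose mutant value was under the minimum. With that value raised to the minimum its mean was -0.36 and 0 genes were lower. Notch3 had 0.24 without _s_at and _x_at probe sets, 0.44 as a mean and 0.57 with the pseudocount at the median, all short of 1.5-fold. With the minimum raised to the 75th percentile, 5 members were measured and their median log2 ratio was 0.69. In the hypoxia list Egln3 changed sign, to -0.14, with the probe set of smallest absolute ratio. The median over all genes was -0.01 after quantile normalization and 0.02 with the probe-set median set to 0. The differences rest on 1 array per pool, and dim probe sets limit Tie1, Pgf, Flt1 and Flt4.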

Other observations

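Hypoxia is the best known inducer of Vegfa, and genes of the hypoxia response are given here as a further list. All 18 listed genes were measured, with a median log2 ratio of 0.11, and 3 (16.7%) passed 1.5-fold upward and 0 downward. The shares of all measured genes were 9.32% and 7.9%. Hk2, a hexokinase, read 357.9 (control) and 2173 (mutant), 6.07-fold higher on its only probe set. Adm, the gene of the vasoactive peptide adrenomedullin, was 3.19-fold higher, at 350.8 against 109.8, on an _x_at probe set, the kind whose probes can also detect other transcripts. Its other probe set read 74.7 (control) and 36.2 (mutant), both under the minimum. Egln3, a prolyl hydroxylase, read 154.8 and 253.7 on its brighter probe set, while its other probe set had a log2 ratio of -0.14. Hif1a, the oxygen-regulated factor itself, had a log2 ratio of -0.02, and Slc2a1, Ldha and Pgk1 had 0.52, 0.09 and 0.14, each on its brightest probe set. The lowest measured probe sets of Slc2a1 and Pgk1 had -0.05 and -0.23. Of the 18 genes 13 lay above 0 and 5 below, with Egln1 and Bnip3 lowest at -0.30 and -0.24. The part of hypoxia in the VEGF and angiopoietin differences was not tested.

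Of 6 genes known from sprouting tip cells 4 were measured and 2 were shown to be at least 1.5-fold higher. The share of all measured genes by the same rule, without folds bounded under 1.5, was 8.04%. Cxcr4, a chemokine receptor that leukocytes also carry, read 448.6 (control) and 1202.2 (mutant), 2.68-fold higher. Unc5b, a netrin receptor, was 2.14-fold higher. Kcne3 read 25.7 (control, under the minimum) and 112.8 (mutant), so its fold is bounded only at 1.40. Apln had a log2 ratio of -0.21, and Esm1 and Dll4 were under the signal minimum. Among lymphatic markers Lyve1, which macrophages carry as well, was 3.67-fold higher at 387.6 against 105.6, whereas Pdpn and Reln had log2 ratios of -0.21 and -0.49 and Prox1 was under the minimum.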
